A study of Mus musculus with 32 samples.

Results

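The mitochondrial ribosomal proteins were taken here as every array probe whose gene symbol begins with Mrpl or Mrps followed by a number, detected with a p-value under 0.05 on at least 4 of the 16 arrays of its sex. In females 96 of 110 such probes passed, for 70 of 76 genes, among 12561 detected probes of 25697 on the array. In males 93 of 104 passed, for 70 of 76 genes, among 12173 detected probes of 24613. The rule itself used gene symbol and detection only, and no comparison between groups. The family was nevertheless chosen with earlier results of these data known, so its shares beside all probes are descriptions.

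Mitochondrial ribosomes translate the few messenger RNAs that mitochondria keep in their own genome, all of which encode subunits of the oxidative phosphorylation complexes. Every protein of these ribosomes is encoded in the nucleus, made in the cytosol and imported. The large subunit joins amino acids and the small subunit decodes the message; some proteins of each have counterparts in bacterial ribosomes and others are found only in mitochondria. In liver, mitochondria carry out much of the oxidation of fatty acids, which a fat-rich diet supplies.

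Livers came from C57bl/6J OlaHsd mice aged 20 weeks, and total RNA of each was hybridised to 1 array. Mothers received a diet with 18% protein (control) or 9% protein (90 g casein per kg) while pregnant, and from 6 weeks of age the offspring ate either a control diet or a high-fat diet (36%) for 14 weeks. This gave 4 groups of 4 arrays in females and the same 4 groups in males, which were run on another version of the array, so that sex and array version cannot be told apart. The labels call the arrays of a group biological replicates and name no litter, so the p-values measure the spread between these samples and treat them as independent. The title of the series names programming of glucose and fatty acid metabolism by maternal protein restriction, in a sex-dependent way.

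Mean raw intensity was 300 to 460.8 units per female array and 170 to 308.6 per male array, and between 43.7% and 47.3% of probes were detected on an array. All 18 hepatocyte marker genes on the female array and all 17 on the male array were detected. Levels below are normalised log2 intensities, on which an increase of 1 is a doubling; differences between groups are differences of their means with the standard error (SE) of the fit. Levels of different probes cannot be set against each other. In whole liver, fewer cells of a type and less RNA per cell cannot be told apart.

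Of the passing probes, 93 of 96 in females and 88 of 93 in males were detected on all 16 arrays. Large-subunit proteins made up 60 probes in each sex, and small-subunit proteins 36 in females and 33 in males. Mrps30 and Mrps18a, which are now placed in the large subunit despite their names, were counted there. Of the 14 female probes that did not pass, 11 were detected on 0 arrays, as were all 11 of the male ones. Just outside the rule in females lay a probe of Mrpl1 (ILMN_3162866, 3 arrays) and a probe of Mrpl51 (ILMN_2831273, 2 arrays). Just inside lay the male Mrpl32 probe (ILMN_2695342, 4 arrays) and the female Mrps25 probe ILMN_2680111 (9 arrays). Mrps36, Mrpl21, Mrpl45 and Mrps14 had no passing probe in either sex; Mrps36, named as a small-subunit protein, is now known as a subunit of the alpha-ketoglutarate dehydrogenase complex.

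Most members had higher levels on the high-fat diet in female offspring of protein-restricted mothers. There 9 of 96 probes, for 7 genes, rose and 0 fell (limma, Benjamini-Hochberg over all 12561 probes), that is 9.38% of the members beside 2.3% of all detected probes that rose and 2.12% that fell. Against their controls 84 of 96 probes had a positive difference, beside 48.1% of all probes. The median member difference was 0.17 on the log2 scale (middle 50% from 0.09 to 0.31), while the median of all probes was -0.01. The 4 high-fat arrays lay wholly above the 4 control arrays in 23 probes, beside 5.33% of all probes, and wholly below in 1, beside 5.71%.

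Mrpl40 (ILMN_2609087; chromosome 16), a large-subunit protein found only in mitochondria, had the smallest p-value. After 9% mothers its level on the control diet was 8.99, 8.81, 8.86 and 9.07, and on the high-fat diet 9.31, 9.46, 9.44 and 9.34. All 4 high-fat arrays were above all 4 controls. The difference was 0.45 ± 0.08 (SE), a fold of 1.37, with an adjusted p of 0.00903 from limma. After 18% mothers the same probe read 9.10, 9.02, 9.00 and 9.05 on the control diet and 9.36, 9.30, 9.28 and 9.37 on the high-fat diet. These groups did not overlap either, and the difference of 0.29 ± 0.08 had an adjusted p of 0.22 from limma.

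Mrpl49 (chromosome 19), also a large-subunit protein found only in mitochondria, had 4 passing probes on the female array, and 3 of them rose after 9% mothers. Probe ILMN_2929031 read 5.96, 5.92, 6.06 and 5.99 on the control diet and 6.59, 6.61, 6.45 and 6.91 on the high-fat diet. Its difference of 0.66 ± 0.13, a fold of 1.57, was the largest among the members (adjusted p = 0.0143, limma). Probe ILMN_2634295 read 9.42, 9.40, 9.38 and 9.33 against 9.84, 9.99, 9.73 and 9.76, again without overlap, with a difference of 0.45 ± 0.10 and a limma adjusted p of 0.0193. The third probe (ILMN_2701363) rose by 0.52 ± 0.14, with a limma adjusted p of 0.0482, and the fourth (ILMN_2628672) differed by 0.42 ± 0.17, with overlapping groups and an adjusted p of 0.145. After 18% mothers the differences of the 4 probes ran from 0.08 to 0.19 and none passed.

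Mrpl30 (ILMN_1260262; chromosome 1), a large-subunit protein with a bacterial counterpart, read 10.61, 10.31, 10.62 and 10.52 on the control diet after 9% mothers. On the high-fat diet it read 10.97, 10.95, 11.01 and 10.81, with no overlap. The difference was 0.42 ± 0.09, with an adjusted p of 0.0188 from limma.

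Another 4 genes rose with smaller margins: Mrpl27 and Mrpl20 of the large subunit, and Mrps15 and Mrps18c of the small subunit, all with bacterial counterparts. Mrpl27 (ILMN_2691298), which in bacteria reaches towards the site where peptide bonds form, read 10.72, 10.57, 10.53 and 10.72 against 11.00, 11.18, 11.18 and 10.76. Mrpl20 (ILMN_2665316) read 10.46, 10.16, 10.52 and 10.40 against 10.56, 10.67, 10.86 and 10.90. In both genes the groups lay side by side without overlap. Mrps15 (ILMN_1224268) read 9.20, 9.03, 9.62 and 9.02 against 9.60, 9.59, 9.77 and 9.65, and Mrps18c (ILMN_2747345), 1 of the 3 genes for S18-type proteins, read 11.35, 11.02, 11.21 and 11.10 against 11.30, 11.60, 11.72 and 11.51. In each of these last genes 1 control array reached into the range of the high-fat group. The differences ran from 0.36 for Mrps18c and Mrpl20 through 0.40 for Mrpl27 to 0.43 for Mrps15, with limma adjusted p-values of 0.042 to 0.0453.

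These calls rested on the arrays to different degrees, and on the fit: 4 probes passed without the detection filter, 5 without the intensity trend and 2 with only these 8 arrays in the fit. With raw array brightness as a covariate 0 passed and the median was 0.10, and without the 4 dimmest arrays 0 passed, with a median of 0.14. Leaving out each of the 8 arrays compared in turn gave between 3 probes past the threshold (without replicate 4 of the control diet after 9% mothers) and 12 (without replicate 4 of the high-fat diet after 9% mothers). Mrpl40 and the Mrpl49 probe ILMN_2929031 remained past it in 8 of 8 such fits, Mrpl30 in 7 and the Mrpl49 probe ILMN_2634295 in 6. Mrps18c remained in 2, and Mrpl20, Mrpl27, Mrps15 and the Mrpl49 probe ILMN_2701363 in 1 each. Calls among all probes are not set beside these counts, which thus do not show whether members changed more than other probes.

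**Figure D1:**
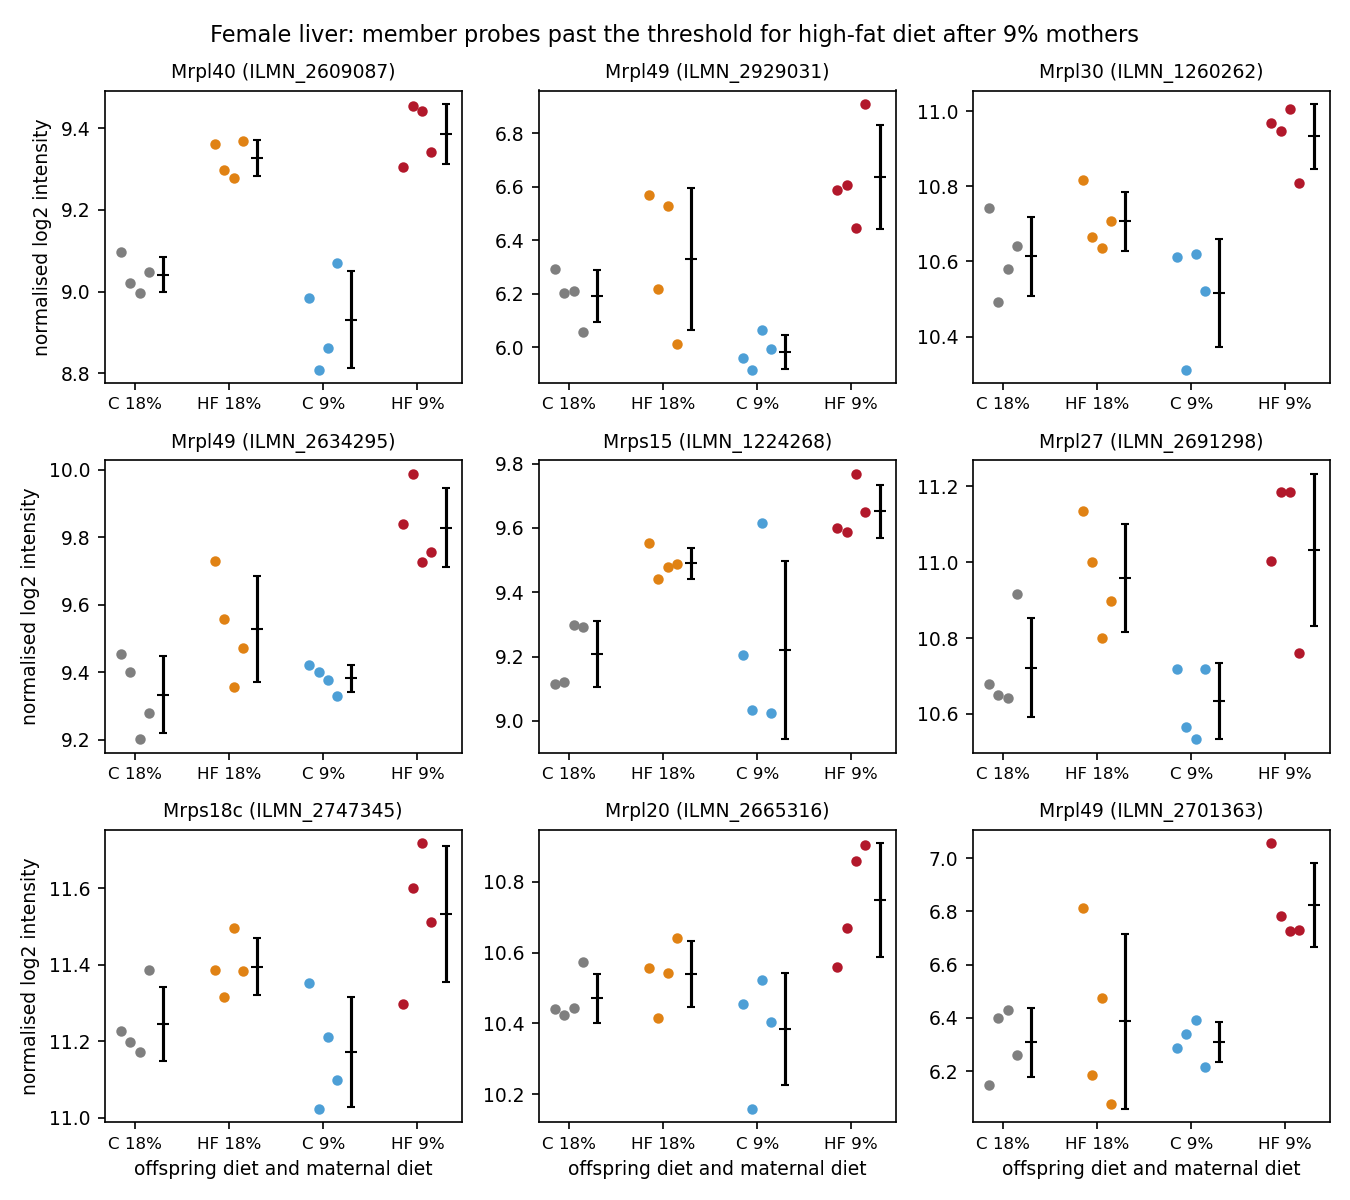
Normalised log2 intensity (vertical axes, a range of its own in each panel) of the 9 probes past the threshold in females, by offspring diet (C control, HF high-fat) and maternal diet. Each point is 1 array and the bars give mean ± SD of 4 arrays; for Mrpl40 the high-fat arrays are above the controls after both maternal diets.

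The other side of the distribution held 12 female probes with a negative difference after 9% mothers, and none passed the test. The lowest was a probe of Mrpl51 (ILMN_2645772), a large-subunit protein, at -0.24 ± 0.17 with a limma adjusted p of 0.448. It read 5.58, 5.47, 5.90 and 5.61 on the control diet and 5.78, 5.23, 5.08 and 5.50 on the high-fat diet, with overlap. The other Mrpl51 probe (ILMN_2653020) went the other way, by 0.31 ± 0.12, with the high-fat arrays all above the controls. The probe whose high-fat arrays all lay below the controls was Mrpl3 (ILMN_1231390), named here after its values were seen. It read 7.89, 8.00, 7.85 and 8.07 against 7.85, 7.35, 7.80 and 7.84, a difference of -0.24 ± 0.11 with a limma adjusted p of 0.217. The other Mrpl3 probe (ILMN_2643264) differed by 0.145 ± 0.09, with overlap.

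The regions upstream of the genes of female probes that rose are of interest because several genes of mitochondrial proteins are known targets of the transcription factors NRF-1, ETS-family GABP and YY1. In the 250 bases before the annotated start (RefSeq, GRCm38.p6), found for 69 of the 78 member genes on either array, 3 motifs were searched on both strands. GCGCANGCG, an NRF-1 motif, stood in 13 genes or 18.8%, beside 5.16% of all 32851 promoters. CCGGAAG, an ETS-family motif, stood in 18 genes or 26.1%, beside 6.91%, and AAGATGGC, a YY1 motif, in 4 genes or 5.8%, beside 1.56%. The shares are not on the same basis: a member gene counts where any of its promoters matched, while the background counts single promoters. The background also holds genes that encode no protein (21263 of its promoters belong to protein-coding genes). The differences between these shares were not tested. Among the 7 genes with a probe that rose, Mrpl30 held the first motif, Mrpl27 and Mrps18c the second, and no gene the third. A match describes these letters and is no evidence of binding. The stretches are printed on the strand of the gene with the match in capitals. Both NRF-1 matches of Mrpl30 come first. Then come those of Mrpl39 (1 of its 2 overlapping matches), Mrpl10, Mrpl12 and Mrpl44, which are among the members named with values. The NRF-1 matches of Mrps18b, Mrpl57 and Mrpl17, also named with values, are not printed. Last are the ETS matches in genes with a probe that rose.
Mrpl30, NRF-1 motif, chr1:37890365-37890393, plus strand: cttccaggaaGCGCACGCGtgacgccgct
Mrpl30, NRF-1 motif, chr1:37890385-37890413, plus strand: gacgccgctgCGCCTGCGCtgtcttctat
Mrpl39, NRF-1 motif, chr16:84735351-84735379, minus strand: aaggagaggcGCGCATGCGcccccgcgtg
Mrpl10, NRF-1 motif, chr11:97041437-97041465, plus strand: cccagctccaCGCATGCGCatagcggccc
Mrpl12, NRF-1 motif, chr11:120484547-120484575, plus strand: attgtctccgCGCCTGCGCgtcgcaccgc
Mrpl44, NRF-1 motif, chr1:79775973-79776001, plus strand: agaagcacttGCGCACGCGcagtacacta
Mrpl27, ETS motif, chr11:94653726-94653752, plus strand: tccgcaagacCCGGAAGtagatctatc
Mrps18c, ETS motif, chr5:100798593-100798619, plus strand: ggtcacgtgaCTTCCGGcccgggaagc

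The matches in Mrps18c, Mrpl10 and Mrpl12 and the second in Mrpl30 are the motif read on the opposite strand. The 250 bases before the start overlapped another annotated gene in 5 of the 7 genes, namely Hira beside Mrpl40, Fau beside Mrpl49, Mitd1 beside Mrpl30, Eme1 beside Mrpl27 and Helq beside Mrps18c. Over all member genes 32 of 69, or 46.4%, had such an overlap, beside 21.4% of the promoters of protein-coding genes. Here too a member gene counts by any of its promoters and the background by single promoters. The matches shown for Mrpl30, Mrpl27 and Mrps18c, and that of Mrpl44 beside Wdfy1, lie within the annotated span of the neighbour.

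In females of 18% mothers the same diet gave smaller member differences. None of the 96 probes passed the limma test, beside 0.0478% of all probes that rose and 0.0159% that fell, and at an unadjusted p under 0.05 10 were higher, beside 5.72% of all probes, and 0 lower. Among all probes 1504 had such a p, 719 of them higher and the rest lower. The median was 0.06 beside 0.00 for all probes, with 71 of 96 probes positive, beside 49.1% of all. The groups were separated upwards in 7 probes (background 3.06%) and downwards in 0 (background 4.1%). Mrpl13 (ILMN_2982200), a large-subunit protein, had the largest difference at 0.37 ± 0.18, with levels of 8.46, 8.71, 9.06 and 9.07 on the control diet and 9.19, 8.79, 9.32 and 9.49 on the high-fat diet. Mrpl39 (ILMN_1249407), a large-subunit protein related in sequence to threonyl-tRNA synthetase, read 7.37, 7.34, 7.56 and 7.53 against 7.78, 7.80, 7.80 and 7.76, and Mrps15 read 9.12, 9.12, 9.30 and 9.29 against 9.55, 9.44, 9.48 and 9.49. Both were separated between the groups, and neither passed, with limma adjusted p-values of 0.311 and 0.353. The lowest was Mrpl57 (ILMN_2790113) at -0.19 ± 0.17.

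Averaged over the maternal diets, the high-fat diet raised 14 of 96 female probes, for 13 genes, and lowered 0, beside 4.42% of all probes that rose and 4.43% that fell; the median was 0.11 and 83 probes were positive. This average uses the same 16 arrays as the comparisons above. The genes with the smallest p-values included, beside Mrpl40, Mrpl49, Mrps15, Mrpl27, Mrpl30 and Mrps18c, the large-subunit genes Mrpl39 (0.37 ± 0.09) and Mrpl1 (0.32 ± 0.09) and the small-subunit genes Mrps17 (0.25 ± 0.06), Mrps35 (0.24 ± 0.07) and Mrps5 (0.26 ± 0.07). Mrpl13 had the largest average difference, 0.43 ± 0.12, with a limma adjusted p of 0.0396. The other probes of Mrpl1 (ILMN_2711966), Mrps5 (ILMN_2716014) and Mrpl13 (ILMN_2982192) differed less, by 0.04, 0.11 and 0.17 after 9% mothers. After 18% mothers these probes were at -0.07, 0.05 and 0.12. Leaving out 1 array at a time gave 8 probes (without replicate 2 of the high-fat diet after 9% mothers) to 18 (without replicate 4 of the control diet after 18% mothers). With raw intensity as a covariate 0 passed and the median was 0.07, and without the 4 dimmest arrays 0 passed, with a median of 0.08.

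**Figure D2:**
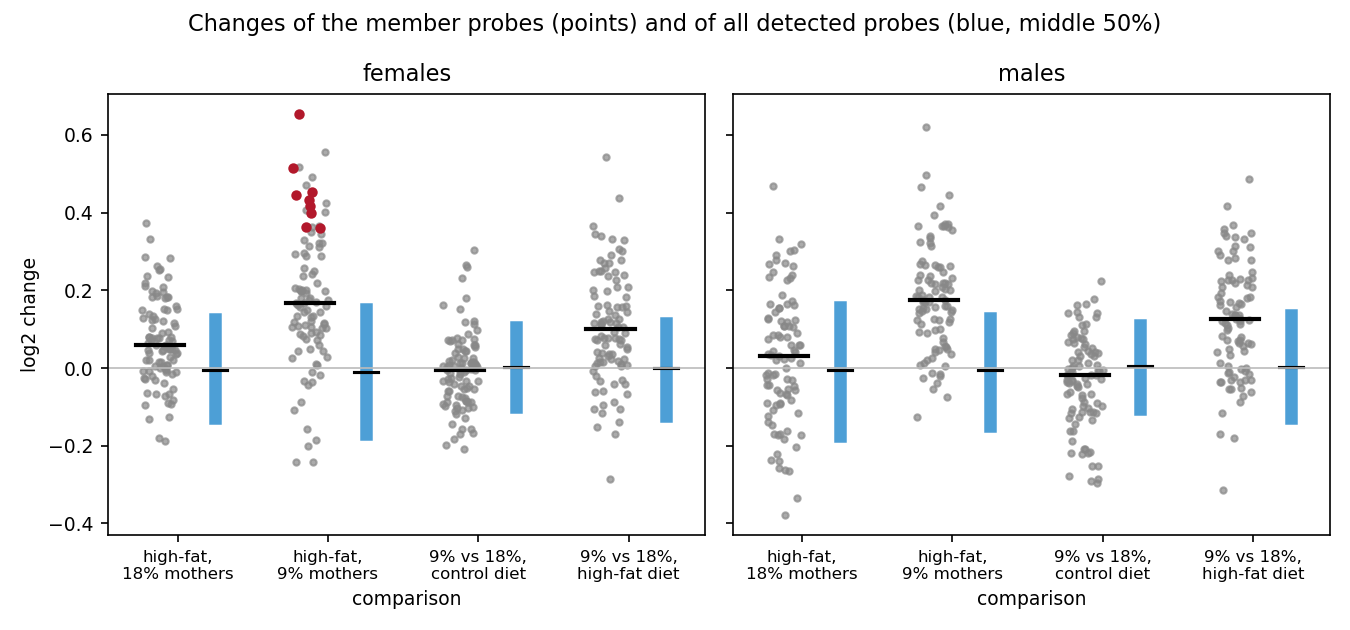
Differences on the log2 scale (vertical axis) of the member probes in 4 comparisons of each sex, 1 grey point per probe, red where it passed the adjusted threshold. Black lines mark medians and blue bars the middle 50% of all detected probes; the member median was 0.17 in females and 0.18 in males for the high-fat diet after 9% mothers, and -0.004 and -0.018 for maternal diet on the control diet.

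In males of 9% mothers the members lay as far above their controls as in females, without a call. None of 93 probes passed the limma test, beside 0.164% of all probes that rose and 0.0493% that fell; 17 were higher, beside 5.42% of all probes, and 0 lower at an unadjusted p under 0.05. Among all probes 1281 had such a p, 660 of them higher and the rest lower. Of the 93 probes 85 were positive, beside 48.9% of all probes, and the median was 0.18, beside -0.01. The groups were separated upwards in 18 probes (background 3.77%) and downwards in 0 (background 4%). The SE of a member probe had a median of 0.14 in males and 0.11 in females.

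Mrpl48 (ILMN_2756519), a large-subunit protein found only in mitochondria, had the smallest p in males. It read 7.75, 7.53, 8.01 and 7.74 on the control diet and 8.16, 8.34, 8.17 and 8.13 on the high-fat diet, without overlap. The difference of 0.45 ± 0.13 had a limma adjusted p of 0.206. The other male Mrpl48 probes differed by 0.26 ± 0.14 (ILMN_1216122) and 0.15 ± 0.14 (ILMN_1236131). Mrpl33 (ILMN_2629835), with a bacterial counterpart, read 10.54, 10.65, 10.74 and 10.87 against 10.93, 11.19, 10.94 and 11.19. These groups did not overlap either, and the adjusted p from limma was 0.24. The other male Mrpl33 probe (ILMN_1229110) differed by 0.26 ± 0.11, with overlap. Mrps35 (ILMN_2776226) of the small subunit differed by 0.50 ± 0.16, while the second probe of that gene (ILMN_1258993) differed by 0.09 ± 0.20.

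Mrpl49, which led the female list by size, also had the largest male difference. Its probe ILMN_2628672 read 5.61, 5.14, 5.59 and 5.44 on the control diet after 9% mothers and 6.40, 6.29, 5.54 and 6.02 on the high-fat diet, a difference of 0.62 ± 0.21 with overlap and a limma adjusted p of 0.301. The other two male probes of the gene differed by 0.47 ± 0.16 (ILMN_2701363) and 0.32 ± 0.18 (ILMN_2634295). All 3 were also positive after 18% mothers, at 0.23 to 0.47. Mrpl40 differed by 0.23 ± 0.13 after 9% mothers in males and by -0.17 ± 0.13 after 18% mothers, with overlapping groups both times. In males of 9% mothers Mrps15 was at -0.02 ± 0.14 by probe ILMN_1224268 and at 0.26 ± 0.13 by probe ILMN_2593868. Mrpl20 was at 0.01 ± 0.17. The lowest male value was that of Mrpl38 (ILMN_2664049), -0.13 ± 0.21.

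After 18% mothers the male members stood near the centre of all probes. None passed, beside 0.435% of all probes that rose and 0.156% that fell; at an unadjusted p under 0.05 limma gave 4 higher, beside 7.12% of all probes, and 1 lower. Among all probes 1787 had such a p, 867 of them higher and the rest lower. The median was 0.03 and 52 of 93 probes were positive, beside 49.1% of all. Separated groups were found upwards in 2 probes (background 3.3%) and downwards in 2 (background 3.76%). The largest difference was that of Mrpl49 probe ILMN_2634295 at 0.47 ± 0.18, and the lowest that of Mrps35 probe ILMN_1258993 at -0.38 ± 0.20. Averaged over maternal diets, 0 male probes passed, beside 1.22% of all probes that rose and 0.764% that fell, with 16 higher, beside 7.25% of all probes, and 0 lower at an unadjusted p under 0.05 in limma. In this average 1953 of all probes had such a p, 883 of them higher and the rest lower. The 3 Mrpl49 probes had differences of 0.37 to 0.43 there, and Mrpl16 (ILMN_2611648), of the large subunit, one of 0.30 ± 0.10.

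**Figure D3:**
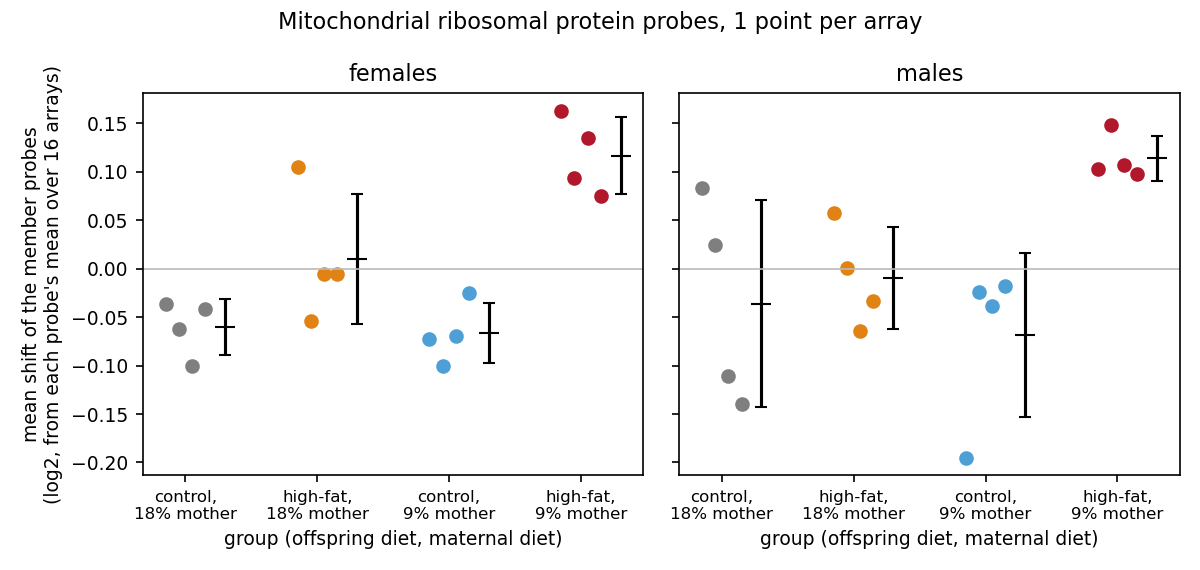
Mean over the member probes of the difference between an array and the probe's mean over the 16 arrays of the sex (vertical axis, log2), 1 point per array, with mean ± SD of each group of 4. The high-fat arrays after 9% mothers lie between 0.075 and 0.163 in females and between 0.098 and 0.148 in males.

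As a mean over all member probes, the shift of an array from the 16-array average was 0.12 ± 0.04 (SD, n = 4) in females and 0.11 ± 0.02 (SD, n = 4) in males on the high-fat diet after 9% mothers. The controls of 9% mothers were at -0.07 ± 0.03 in females and -0.07 ± 0.09 in males. In both sexes every high-fat array of 9% mothers was above every control array of 9% mothers. After 18% mothers the female controls ran from -0.10 to -0.04 and the high-fat arrays from -0.05 to 0.11, with overlap, and the male ranges of -0.14 to 0.08 and -0.06 to 0.06 overlapped too.

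The difference between sexes was tested over 6941 genes measured on both array versions, with 1 probe per gene, of which 67 encode mitochondrial ribosomal proteins. After 9% mothers 56 of the 67 were positive in both sexes, beside 28.6% of all genes, and 1 was negative in both. The median difference was 0.17 in females and 0.16 in males. For male minus female, 0 of the 67 and 0% of all genes passed the limma test, and at an unadjusted p under 0.05 it gave 3 of the 67, beside 7.28% of all genes. The most unlike was Mrps15 by its brightest male probe (0.43 in females, -0.02 in males). The difference was -0.45 ± 0.17 with a limma adjusted p of 0.622, and the other male probe of Mrps15 was at 0.26. Across the 67 genes the female and male differences had a Pearson correlation of 0.19, beside 0.48 across all 6941, as a description over genes that share their arrays. After 18% mothers 26 genes were positive in both sexes, beside 27.8% of all genes, and 6 negative in both, with medians of 0.07 and 0.02. There 0 passed the test of the difference, and at an unadjusted p under 0.05 limma gave 9 of the 67, beside 10.7% of all genes.

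**Figure D4:**
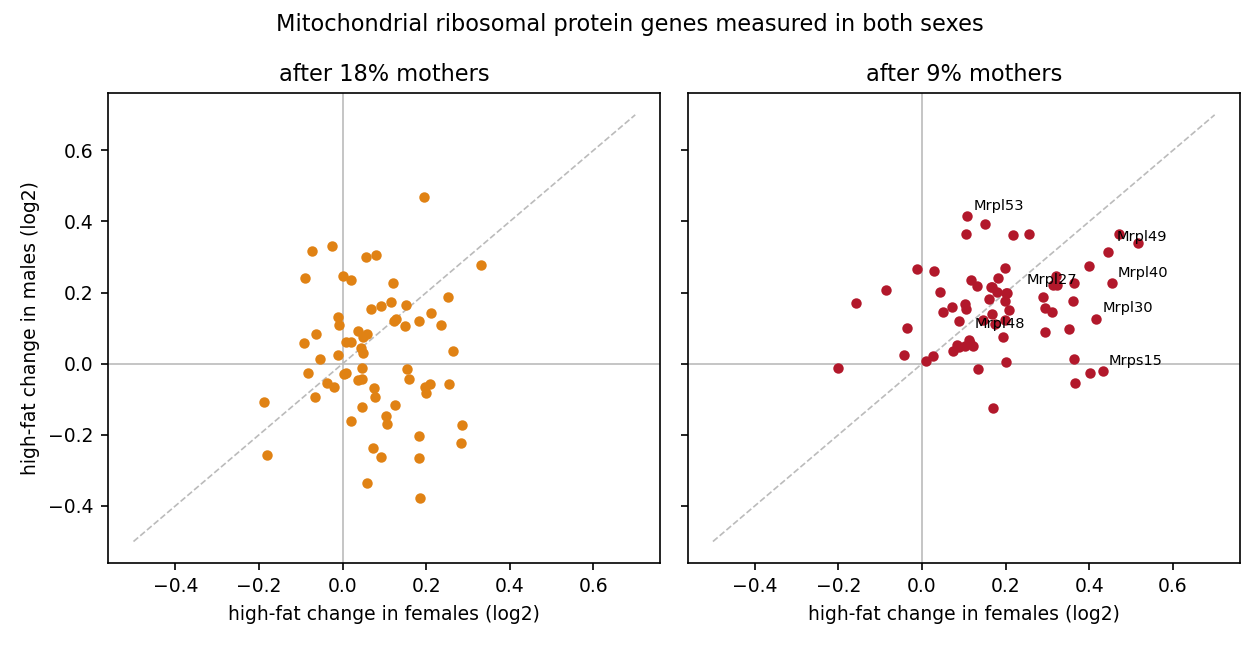
High-fat difference in males (vertical axis, log2) against that in females (horizontal axis, log2) for the 67 member genes measured in both sexes, 1 point per gene, with the dashed line of equal values. After 9% mothers 56 points lie in the upper right field, and after 18% mothers 26.

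The maternal diet alone did not separate the members on the control diet. Neither sex had a call, nor had any other probe of the array (background 0%); at an unadjusted p under 0.05 limma gave 1 higher member probe, beside 2.95% of all probes, and 0 lower in females, and in males 0 higher, beside 1.77%, and 2 lower. Among all probes 777 in females and 495 in males had such a p, 371 and 216 of them higher and the rest lower. The member medians were -0.004 and -0.018. Groups were separated in 1 female probe upwards (background 1.59%) and 0 downwards (1.62%), and in males in 0 upwards (1.63%). In females Mrpl35 (ILMN_2753924), of the large subunit, was highest at 0.31 ± 0.11 and a Mrpl49 probe (ILMN_2929031) lowest at -0.21 ± 0.13. In males Mrps10 (ILMN_2691360) of the small subunit read 8.49, 8.70, 8.52 and 8.63 after 18% mothers and 8.26, 8.16, 8.32 and 8.46 after 9% mothers, and Mrpl53 (ILMN_2767187) read 10.55, 10.51, 10.49 and 10.43 against 10.28, 9.69, 10.41 and 10.41. Both were lower without overlap (2 probes, beside 1.22% of all), and neither passed (limma adjusted p = 1). The other male Mrps10 probe (ILMN_2769630) went the other way, by 0.145 ± 0.12, with overlap.

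On the high-fat diet most member probes were higher after 9% than after 18% mothers, with 0 calls in either sex and 0% among all probes. The mean member shifts of the arrays overlapped in females (0.075 to 0.163 after 9% mothers, -0.054 to 0.105 after 18%). In males they did not (0.098 to 0.148 against -0.064 to 0.058). Mean raw intensity was 342.9 after 9% and 385.4 units after 18% mothers in females, and 252.3 and 245.4 in males. The female median was 0.10, with 78 of 96 probes positive, beside 50% of all. At an unadjusted p under 0.05 18 were higher, beside 4.51% of all probes, and 1 lower. The male median was 0.13, with 71 of 93 positive, beside 50.5% of all, and 11 were higher, beside 3.13%, and 1 lower. Among all probes 1167 in females and 834 in males had an unadjusted p under 0.05 in limma, 566 and 381 of them higher and the rest lower. The groups were separated upwards in 5 female member probes (background 2.01%) and 8 male ones (background 1.92%), and downwards in 1 (2.09%) and 0 (1.59%). Mrpl34 (ILMN_2744204), a large-subunit protein with a bacterial counterpart, had the largest female difference: it read 9.49, 8.85, 8.76 and 9.17 after 18% mothers and 9.89, 9.41, 9.66 and 9.50 after 9% mothers, 0.54 ± 0.15 with overlap and a limma adjusted p of 0.362. Mrps9 (ILMN_1233192), of the small subunit, was the lowest at -0.29 ± 0.11, with all 4 arrays of 9% mothers below those of 18% mothers. In males Mrpl54 (ILMN_2755519), found only in mitochondria, read 9.38, 9.86, 9.63 and 9.63 against 9.92, 10.10, 10.04 and 9.90, separated, with a limma adjusted p of 0.708. These comparisons share the high-fat arrays of 9% mothers with the high-fat comparison after 9% mothers.

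Whether the high-fat response differed between maternal diets was tested as an interaction, and 0 member probes passed in either sex, nor did any other probe (0%). The median interaction was 0.12 in females, with 6 higher, beside 2.7% of all probes, and 1 lower at an unadjusted p under 0.05 in limma, and 0.17 in males, with 8 higher, beside 3.75%, and 0 lower. Among all probes 654 in females and 884 in males had such a p, 339 and 456 of them higher and the rest lower. With no member past the adjusted threshold, a larger response after 9% than after 18% mothers is not shown for any single member. The smallest limma p in females was that of the Mrpl49 probe ILMN_2929031 (0.52 ± 0.19, adjusted p = 0.898) and in males that of Mrpl53 (0.58 ± 0.20, adjusted p = 0.649).

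Large- and small-subunit genes had like differences. For the high-fat diet after 9% mothers in females, 54 of 60 large-subunit probes were positive, 7 rose and the median was 0.17, while 30 of 36 small-subunit probes were positive, 2 rose and the median was 0.15. In males 53 of 60 and 32 of 33 were positive, with medians of 0.17 and 0.18. Probes of proteins with a bacterial counterpart had medians of 0.17 in both sexes, and those of proteins found only in mitochondria 0.17 in females and 0.19 in males. No test was made between these classes.

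Some members were looked up whatever their values. Mrpl12, which with Mrpl10 and Mrpl11 belongs to the stalk that recruits translation factors, differed after 9% mothers by 0.21 ± 0.10 in females and 0.15 ± 0.14 in males. Mrpl11 differed by 0.22 ± 0.11 and 0.36 ± 0.13, and the 2 female Mrpl10 probes by 0.06 ± 0.10 and 0.07 ± 0.09. Mrps12, at the decoding site, differed by 0.20 ± 0.09 in females, and by 0.18 ± 0.13 and 0.04 ± 0.15 for the 2 male probes. Of the S18-type paralogues, Mrps18c rose in females while Mrps18a was at 0.20 ± 0.11 and the 2 Mrps18b probes at 0.03 ± 0.12 and -0.02 ± 0.12. In males these genes were at 0.18 ± 0.16, 0.27 ± 0.12 and 0.26 ± 0.14. Mrps30 was at 0.19 ± 0.09 in females and 0.08 ± 0.11 in males, and Mrpl44, measured in males only, at 0.37 ± 0.14. Apart from Mrps18c in females none of these passed the test. Both Mrps18b probes and both Mrpl10 probes of the female array, female Mrps12 and Mrps18a and the male Mrps12 probe ILMN_1254734 changed sign under other settings.

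Several probes of 1 gene mostly pointed the same way. For the high-fat diet after 9% mothers all probes of a gene had 1 sign in 16 of the 21 female genes with several probes (47 probes) and in 16 of the 19 male genes (42 probes). Since 87.5% of all member probes in females and 91.4% in males were positive there, a shared sign was frequent whichever gene a probe belonged to. These counts thus do not show agreement between probes of a gene. On the control diet, between maternal diets, all probes had 1 sign in 9 of 21 female and 4 of 19 male genes. There 47.9% of member probes in females and 40.9% in males were positive.

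Other genes of the mitochondrial expression pathway were described from lists for the high-fat diet after 9% mothers. Of 9 female probes for mitoribosomal and associated proteins with other names, 9 were positive and 1 rose. It was that of Slirp (0.39 ± 0.10), an associated protein that binds mitochondrial messenger RNA. Among 17 probes for translation factors 12 were positive and 1 rose, the initiation factor Mtif2 (0.47 ± 0.13). Among 20 probes for aminoacyl-tRNA synthesis 14 were positive and 2 rose, both of them probes of Gatb (ILMN_1257501 by 0.63 ± 0.12), a subunit of the amidotransferase that makes glutaminyl-tRNA. Of 22 probes for ribosome assembly 17 were positive and of 18 for mitochondrial DNA expression 13, and 0 passed. Of 11 probes for regulators of mitochondrial genes 2 were positive, with a median of -0.18 and 0 calls. Averaged over maternal diets in females 1 of these 11 fell, that of Gabpa, the DNA-binding subunit of GABP. Its difference was -0.40 ± 0.11, with a limma adjusted p of 0.0295. In the same average probes of Slirp, Dap3, Mtif2, Gfm2, Gatb, Fars2, Mterf2 and Elac2 from the other lists rose, by 0.21 (Fars2) to 0.55 (Mterf2). In males of 9% mothers 0 probes of these lists passed, and medians ran from 0.03 for the regulators to 0.13 for mitoribosomal and associated proteins with other names. In the male average over maternal diets a Gatb probe (ILMN_2647156) rose by 0.42 ± 0.09, with a limma adjusted p of 0.0198.

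The nucleus-encoded subunits of oxidative phosphorylation, which join those made on mitochondrial ribosomes in the same complexes, had a larger median than the members in females. Of 87 probes 84 were positive and 23 rose, with a median of 0.26, beside 0.17 for the members; Ndufc1 (0.58 ± 0.10) and Ndufb5 (0.61 ± 0.12) of complex I were among them. In males 72 of 74 were positive, 0 passed and the median was 0.13, beside 0.18 for the members. Cytosolic ribosomal proteins had a median of 0.01 in females, with 36 of 68 probes positive, 2 that rose (Rpl38 by 0.62 ± 0.14 and Rps27l by 0.27 ± 0.07) and 1 that fell (Rpl27a, at -0.44 ± 0.10), and of -0.07 in males. These differences between lists were not tested.

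Array brightness moved with the groups. Mean raw intensity was 342.9 ± 48.9 units (SD, n = 4) in females on the high-fat diet after 9% mothers and 422.1 ± 43.9 (SD, n = 4) in their controls, and in males 252.3 ± 26.1 and 278.4 ± 20.9. With raw intensity as a covariate, 0 female member probes passed after 9% mothers (3 of all probes did), and the median was 0.10 in females and 0.20 in males. Without the 4 dimmest female arrays, which leaves 1 high-fat array of 9% mothers, 0 passed and the median was 0.14. Within the group, the brightest female high-fat array, at 409.5 units, lay inside the control range of 365.8 to 460.8. It had a member shift of 0.08, above all 4 controls but the lowest of its group. The dimmer arrays of the group were at 0.09 to 0.16. In males the high-fat arrays of 9% mothers at 273.1 and 274.6 units, inside the control range of 260.5 to 308.6, had shifts of 0.11 and 0.10. Those at 240 and 221.4 units had shifts of 0.10 and 0.15. The dimmest male array, at 170 units on the high-fat diet after 18% mothers, had a shift of -0.06, and a dim female array of that diet, at 322.9 units, one of 0.11. Diet and brightness moved together after 9% mothers, so single arrays cannot tell their parts apart.

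**Figure D5:**
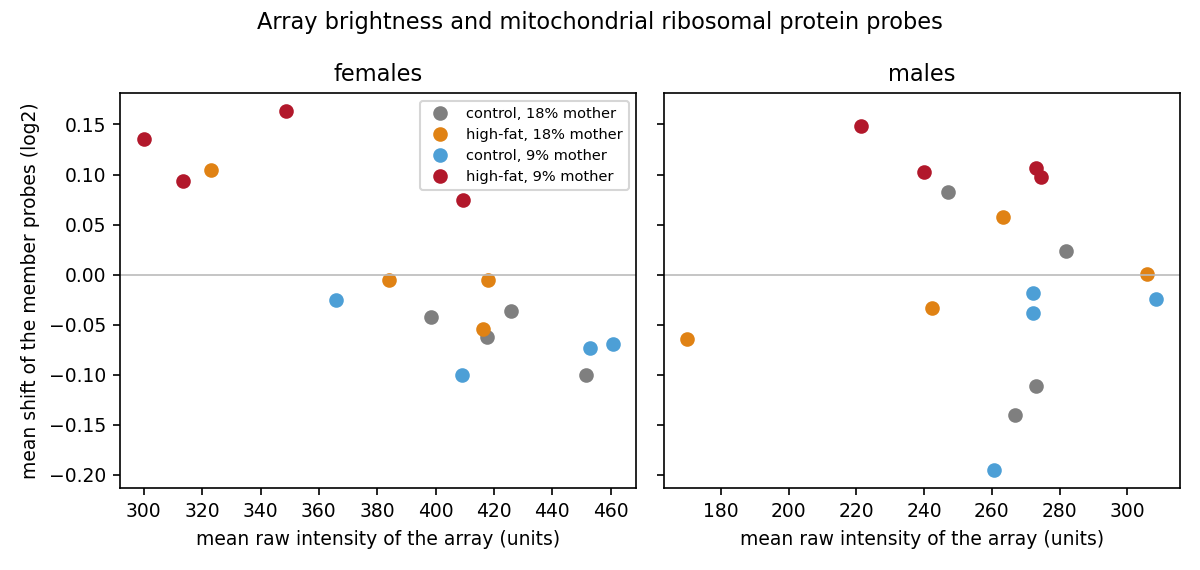
Mean shift of the member probes of an array (vertical axis, log2) against the array's mean raw intensity (horizontal axis, units as deposited), 1 point per array, coloured by group. The female high-fat arrays after 9% mothers span 300 to 409.5 units, and 3 of them are among the 4 dimmest female arrays.

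Markers of other liver cells gave these values for the high-fat diet after 9% mothers in females, over the detected probes of each list. Hepatocyte markers were positive in 10 of 22 probes (median -0.02), and their summed level ran from 339489 to 347961 units on the high-fat diet and from 336007 to 365760 in controls. Macrophage markers were positive in 2 of 13 (median -0.16; sums of 7518 to 12161 against 7679 to 14263, Cd5l not detected). Lymphocyte markers were positive in 0 of 7 (median -0.24; sums of 181 to 233 against 215 to 286, with Cd2, Ltb, Ms4a1 and Nkg7 not detected), and neutrophil markers in 0 of 5 (median -0.29; 667 to 1715 against 845 to 4203). Endothelial markers were positive in 2 of 9 (median -0.21; 5607 to 6315 against 6324 to 7358), and stellate cell markers in 4 of 12 (median -0.08; 1939 to 2431 against 2294 to 3590). Red cell markers were positive in 4 of 4 (median 0.54; 8100 to 11598 against 5787 to 11076), and bile duct markers in 3 of 3 (median 0.21). Among these markers 1 passed, Stab2 of endothelial cells, which fell by 0.41 ± 0.10. In the female average over maternal diets more passed. Of the hepatocyte probes 4 fell, among them those of Cps1 (-0.49 ± 0.12), Hpx (-0.22 ± 0.06) and Hnf4a (-0.32 ± 0.09), as did the stellate cell marker Reln (-0.34 ± 0.10), and the red cell marker Hbb-b2 rose by 0.44 ± 0.13. The part of these cells in the member differences was not tested.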

How the data were processed

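Illumina bead arrays of liver RNA were used, 16 per sex. The tables used hold intensity values that the authors deposited without normalisation between arrays, and a detection p-value per probe and array, per the file headers. Per the submitters' processing notes the program was BeadStudio, of a version not given in the sources used here. Tables of normalised intensity that the authors also deposited (medians per array of 13.52 to 13.64 in females and 8.578 to 8.649 in males, on a linear scale with shared quantiles) served as an alternative. Probes were named from the platform annotation: 23978 female and 20984 male probes had 1 symbol, 0 and 1 several, and 1719 and 3628 none.

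Background correction and quantile normalisation used the neqc function of limma 3.58.1 (R 4.3.3; offset 16, negative controls inferred from detection p), separately by sex. A probe was kept where its detection p was under 0.05 on 4 or more of the 16 arrays, as in the rule for members. Each sex had 1 fit over its 4 groups (lmFit, eBayes with intensity trend), with two-sided p-values, Benjamini-Hochberg adjustment over all kept probes and a threshold of 0.05. Sexes were compared as a difference of within-sex effects over shared genes, with the brightest probe per gene. The fit was tested on simulated data. Promoters were searched with Python 3.11.15, and matplotlib 3.10.9 drew the figures.

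Members and gene lists were chosen with earlier results of these data known. Genes are named by rule. In each comparison these were up to 12 members past the threshold by smallest p, otherwise the 3 smallest p, and the highest and lowest difference. A set of 10 was looked up always, and up to 3 genes past the threshold were named from each other list. For a gene with several probes all were given in some passages, and only the probe picked by the rule in others. Replicate numbers were not taken as pairing the samples, since nothing in the labels says that they pair animals or litters. Deviations of same-numbered pairs correlated over 0.1 in 10 of 24 pairs in each sex. Differently numbered pairs did so in 16 of 72 in females and 15 of 72 in males. Median correlations were 0.058 in females and 0.064 in males for same-numbered pairs, and -0.017 and -0.014 for the others. Whether the numbers mark a shared litter or batch was not tested. Counts with the number as a block are given below. No 2 arrays held identical values.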

Additional observations from a re-analysis of the deposited data

Results flagged for a closer look

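Among 180 groups of 4 arrays examined for the members named in the report and for the mean member shift, 14 (7.78%) held 1 array far from the other 3, where chance gives about 1 in 20. Values are normalised log2 intensities. On the high-fat diet after 9% mothers in females, replicate 2 was low for Mrpl3 at 7.348 (others 7.804 to 7.851) and high for Mrpl17 at 11.231 (others 11.061 to 11.08), and replicate 1 was high for the Mrpl49 probe ILMN_2701363 at 7.056 (others 6.728 to 6.782). In female controls of 18% mothers, replicate 4 was high for Mrpl20 at 10.574 and for Mrpl27 at 10.915, and replicate 2 was high for Mrps17 at 10.961. On the female high-fat diet after 18% mothers, replicate 4 was high for Mrpl1 at 7.488.

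In male controls of 18% mothers, replicate 2 was low for Mrpl50 at 9.824. On the male high-fat diet after 18% mothers, replicate 1 was low for Mrpl30 at 9.564 (others 10.041 to 10.107), replicate 4 was high for Mrpl16 at 9.979 and replicate 3 was low for Mrpl33 at 10.728. In male controls of 9% mothers, replicate 1 was low for Mrpl30 at 10.075 and also for the mean member shift at -0.195 (others -0.038 to -0.018). On the male high-fat diet after 9% mothers, replicate 2 was high for Mrpl48 at 8.342.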

How the results depend on the processing

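The count of 9 female member probes for the high-fat diet after 9% mothers was 8 with the deposited normalised values, 8 without background correction, 9 with an offset of 50, 11 with detection on all 16 arrays, 7 with 1 probe per gene and 9 with array weights. It was 4 without a detection filter (more probes tested), 5 without the intensity trend, 2 with only the groups compared (fewer arrays), 0 with raw intensity as a covariate and 0 without the 4 dimmest arrays, which leaves 1 array of that high-fat group, assumed to vary like the others. The count of 14 for the average over maternal diets was 9 without a filter, 0 with the covariate and 0 without the dimmest arrays. With array weights the male average gave 2 probes in place of 0. The causes of these changes were not tested beyond the construction named. Leaving out 1 array at a time gave 3 to 12 after 9% mothers and 8 to 18 for the average in females, 0 to 2 (without replicate 1 of the control diet after 18% mothers) for the average in males, and 0 in every such fit of the other comparisons within a sex. With the replicate number as a block the female counts were 9 (7 shared) and 17 (14 shared), and no other count of member probes moved from 0. Calls among all probes under these settings and with arrays left out are not set beside the member counts. The counts thus do not show whether the members changed more than other probes.

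The median for females after 9% mothers was 0.142 without the dimmest arrays. Differences near 0 after 9% mothers changed sign: in females Mrpl10 to -0.093 and -0.047 with the covariate and -0.025 and -0.056 without the dimmest arrays, Mrps18b probe ILMN_2865239 to -0.152 and -0.153 in these fits and, with 1 array left out, between -0.048 and 0.113, Mrps18b probe ILMN_1226334 to 0.01 with array weights and, with 1 array left out, between -0.099 and 0.079, and Mrps12 to -0.007 and Mrps18a to -0.045 without the dimmest arrays. With 1 array left out, male Mrps12 probe ILMN_1254734 ran from -0.065 to 0.098 and Mrpl38 from -0.249 to 0.012. The slide was not run as a block because the files used name none, and arrays have no depth beyond their number.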

Other observations

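Over the 16 female arrays, the named probes outside the members with the highest Pearson correlation with Mrpl40 (ILMN_2609087) were those of Tlcd1 (0.926), Pltp (0.921) and Mgmt (0.915). Over the 16 male arrays, those most like Mrpl48 (ILMN_2756519) were Pts (0.895), Pdzd11 (0.887) and As3mt (0.884). The search covered only probes with a gene name outside the members, and the arrays share their groups.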
